A study of Homo sapiens with 12 samples.

Results

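Long noncoding RNAs expressed in Jurkat cells (a line from a human T-cell leukaemia) were followed through an Argonaute immunoprecipitation on microarrays. They were chosen by their symbols and by their measured level in Total RNA. A gene was taken where its symbol was LINC and a number, ended in -AS and a number (antisense) or in -DT (divergent transcript), was SNHG and a number (snoRNA host gene), or was FTX, TUG1, MALAT1, NEAT1 or GAS5, and where its probe set averaged at least 5 on the log2 scale over the 4 Total RNA arrays. This gave 251 of the 1832 genes whose symbols fit the rule, of 19775 genes with a probe set of a single symbol. They comprised 141 antisense RNAs, 56 LINC RNAs, 47 divergent transcripts, 4 snoRNA hosts and 3 RNAs named singly (FTX, TUG1 and MALAT1). All 251 passed the filter on low values that left 12824 genes for testing. GAS5 averaged 3.95 and NEAT1 had only probe sets shared with another symbol, so neither was included. RefSeq lists 245 of the 251 as lncRNA, 2 as antisense RNA and TUG1 as protein coding, and 3 were not matched. Just inside the threshold were LINC00537 at 5.01, LINC01138 at 5.02 and DLG5-AS1 at 5.02, and just outside it were LINC00342 at 4.99, TMC3-AS1 at 4.99 and SLC25A5-AS1 at 4.98.

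The cells had been transduced with miR-21 or, as controls, with a control vector. From each, RNA was taken by AGO2 immunoprecipitation (AGO2 IP), by control IgG immunoprecipitation (IgG IP) and without immunoprecipitation (Total RNA), with 2 replicates, which made 6 groups and 12 arrays. The labels name no clone, promoter or transduction efficiency, and they do not say whether replicates were separate cultures, so p-values measure the spread between these samples. The label reaction used 100 ng of immunoprecipitated RNA and 1 ug of Total RNA. Input amount and fraction therefore cannot be told apart.

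Long noncoding RNAs are transcripts with little or no coding potential, and many of them stay in the nucleus, where they are retained at chromatin or in nuclear bodies. AGO2 is the Argonaute protein that carries a microRNA to complementary sites, most of which lie in cytoplasmic mRNAs, and an RNA held by it is recovered with the anti-AGO2 antibody. Antisense and divergent transcripts are read from the strand opposite to the gene they are named after, and divergent transcripts start near that gene's own start. SNHG genes carry small nucleolar RNAs in their introns, and their spliced exons are often degraded in the cytoplasm.

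The sequences that follow show the overexpressed microRNA and 6 from within FTX, on its strand. FTX is an RNA of the X-inactivation centre that hosts a microRNA cluster, and miR-374a-5p and miR-374c of that region are not shown. FTX spans chrX:74028136-74293574 (GRCh38.p14, minus strand). Capitals mark the seed, bases 2 to 8, and all sequences are from RefSeq. Of the 251 RNAs, 4 held a microRNA hairpin on their own strand. The arrays read the long RNA and not the mature microRNAs.
miR-21-5p: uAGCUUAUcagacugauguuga
miR-374a-3p: cUUAUCAGauuguauuguaauu
miR-374b-5p: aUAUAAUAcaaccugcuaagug
miR-374b-3p: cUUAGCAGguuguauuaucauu
miR-421: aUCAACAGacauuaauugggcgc
miR-545-5p: uCAGUAAAuguuuauuagauga
miR-545-3p: uCAGCAAAcauuuauugugugc
No pair of the 7 sequences shown shared a seed, which says nothing of the members of the cluster that are not shown.

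Promoter windows are given for 2 RNAs that lay low in both immunoprecipitates, FTX and LINC01355, and for 2 divergent transcripts that lay high in both, DPH5-DT and RAB30-DT. Capitals mark the start base and every match to 3 motifs, each searched on both strands. The first is CCAAT, whose reverse complement is ATTGG. The second is TATAAA, whose reverse complement is TTTATA. The third is GGGCGG, whose reverse complement is CCGCCC. Overlap between matches was allowed.
FTX, chrX:74293525-74293824, minus strand: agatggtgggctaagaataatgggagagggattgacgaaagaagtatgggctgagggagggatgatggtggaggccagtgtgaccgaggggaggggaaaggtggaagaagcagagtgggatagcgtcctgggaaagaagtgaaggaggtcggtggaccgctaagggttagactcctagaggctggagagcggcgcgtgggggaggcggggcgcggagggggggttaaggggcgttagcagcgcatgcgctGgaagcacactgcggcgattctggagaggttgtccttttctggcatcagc
LINC01355, chr1:23285469-23285768, minus strand: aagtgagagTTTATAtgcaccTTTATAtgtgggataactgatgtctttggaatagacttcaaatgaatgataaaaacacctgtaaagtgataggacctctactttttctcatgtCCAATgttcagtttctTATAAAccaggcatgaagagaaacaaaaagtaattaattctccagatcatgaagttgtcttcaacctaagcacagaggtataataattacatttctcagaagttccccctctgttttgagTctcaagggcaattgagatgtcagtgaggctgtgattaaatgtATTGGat
DPH5-DT, chr1:101025596-101025895, plus strand: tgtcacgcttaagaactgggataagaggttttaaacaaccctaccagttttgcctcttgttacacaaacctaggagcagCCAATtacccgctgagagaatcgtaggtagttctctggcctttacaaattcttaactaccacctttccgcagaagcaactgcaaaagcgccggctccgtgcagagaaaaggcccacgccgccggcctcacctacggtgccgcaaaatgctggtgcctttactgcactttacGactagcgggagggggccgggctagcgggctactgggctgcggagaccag
RAB30-DT, chr11:83071816-83072115, plus strand: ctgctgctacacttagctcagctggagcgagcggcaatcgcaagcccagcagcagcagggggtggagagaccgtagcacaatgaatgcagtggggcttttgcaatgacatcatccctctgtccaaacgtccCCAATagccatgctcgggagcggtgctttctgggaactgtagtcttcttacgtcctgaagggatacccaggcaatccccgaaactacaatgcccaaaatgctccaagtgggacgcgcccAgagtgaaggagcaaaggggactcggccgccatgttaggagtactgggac
In the FTX window none of these motifs was found. LINC01355 held the second motif, LINC01355 and the 2 divergent transcripts held the first, and none of the 4 held the third. Over the 206 members with a promoter window, the first motif stood in 38.3%, against 39.7% of 27305 genes. The second stood in 7.77%, against 14% of genes, and the third in 66.0%, against 48.3% of genes.

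All values are log2 levels from RMA, the Affymetrix summary of a probe set, as deposited by the authors. RMA scales arrays to a common distribution, so a difference between fractions is relative to the other RNAs of that fraction and not an absolute yield. A level of RNA from a whole culture does not tell fewer cells from less RNA per cell. Paired values are given as replicate 1, then replicate 2. The mean over all probe sets was 4.39 to 4.40 on the replicate 1 arrays and 5.25 to 5.27 on the replicate 2 arrays, so levels are compared within a replicate. The fit with the replicate as a block is therefore printed beside the fit without it. On simulated data the fit without the block recovered 0% of the differences put in, so its counts of 0 cannot show that nothing differs. All 12 T-cell genes listed were above the filter in Total RNA (CD3D 12.49, LCK 11.78). Of the genes for other cell types, 1 of 4 measured for B cells, 1 of 3 for monocytes, 1 of 2 for erythroid cells and 3 of 5 for epithelial and kidney cells were above it.

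Some arrays of replicate 2 stood apart from their labels. For the control vector in replicate 2, AGO2 IP and IgG IP differed over genes by an SD of 0.184, and for miR-21 by an SD of 0.292. In replicate 1 the SD was 0.828 for the control vector and 0.791 for miR-21. In replicate 2 the AGO2 IP arrays of the 2 constructs differed by an SD of 0.607 and the IgG IP arrays by 0.619. Each antibody's array in replicate 2 was therefore closer to the other antibody's array of its construct than to its own antibody's array. Results that rest on them are also given without 2 doubted arrays of replicate 2, namely AGO2 IP of the control vector and IgG IP of miR-21. AGO2 IP against IgG IP then compares miR-21 with control vector in that replicate, which confounds antibody and construct there. These SDs do not tell which arrays of replicate 2 depart from their labels. Leaving out AGO2 IP of miR-21 together with IgG IP of the control vector instead was not run. The ACTB 3′ minus 5′ probe difference, a measure of RNA integrity, was 1.97 to 4.0 in AGO2 IP, 2.08 to 3.48 in IgG IP and 1.35 to 3.53 in Total RNA, and its highest value was on the control vector AGO2 IP array of replicate 1. Its part in the results was not tested.

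AGO2 IP was first set against Total RNA, which asks which RNAs come down with AGO2 at a level unlike that in the cell. The Total RNA level chose the RNAs, so these differences are a description. FTX, GABPB1-AS1, LINC01355, SNHG19 and RUSC1-AS1 lay lowest in AGO2 IP relative to Total RNA, and GARS1-DT, TRG-AS1, DPH5-DT and RAB30-DT lay highest. Over the 251, the median difference was -0.12, against -0.05 over all tested genes and -0.15 over the 10284 tested genes with a Total RNA level of at least 5. By class, the median was -0.06 for LINC, -0.12 for antisense, -0.11 for divergent, -0.38 for snoRNA hosts and -1.65 for the 3 RNAs named singly. The difference had the same sign in both replicates for 140 of 251 (55.8%), with 99 lower and 41 higher, against 58.2% of all tested genes and 58.8% of those with a level of at least 5. Without the block 0 were called at an adjusted p of 0.05 (0% of all tested genes; 24 of the 251 had an unadjusted p under 0.05). With the block 39 were called, 5 higher and 34 lower, or 15.5% of the 251. The fit counts the 2 constructs of a replicate as separate samples in its SEs and calls, while only 2 replicates carry the contrast. Of all tested genes 16% were called, 4.71% higher and 11.3% lower. Of the tested genes with a Total RNA level of at least 5, 19.1% were called, 5.26% higher and 13.9% lower. With 1 array left out the count ran between 1 (without the miR-21 AGO2 IP array of replicate 2) and 55 (without the control vector one). Without the 2 doubted arrays 49 of the 251 were called, 9 higher and 40 lower. The background was then 21.9% of all tested genes (8.58% higher and 13.3% lower) and 25.7% of those with a level of at least 5 (9.43% higher and 16.3% lower). In 16 of the 251 all AGO2 IP arrays were above, and in 61 below, the Total RNA arrays within both replicates, against 11.4% and 21% of all tested genes and 11% and 25.5% of those with a level of at least 5.

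**Figure D1:**
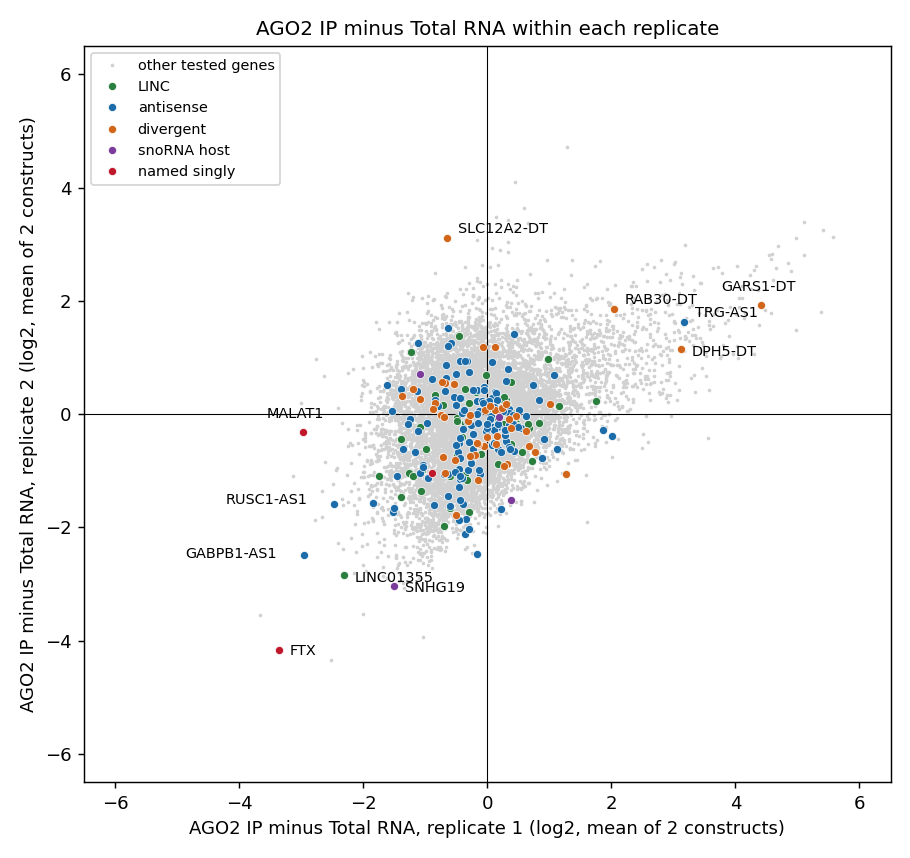
Difference of AGO2 IP and Total RNA in replicate 1 (horizontal) and replicate 2 (vertical), in log2 units and averaged over the 2 constructs, for the 251 long noncoding RNAs (coloured by naming class) and all other tested genes (grey). FTX lies at -3.36 and -4.16 and GARS1-DT at 4.42 and 1.92, while SLC12A2-DT lies at -0.65 and 3.10.

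FTX had the largest shortfall of the 251. It read 2.33 and 3.21 on the miR-21 AGO2 IP arrays, 2.92 and 3.61 on the control vector AGO2 IP arrays, 2.91 and 3.93 on the miR-21 IgG IP arrays and 3.18 and 4.21 on the control vector IgG IP arrays. In Total RNA it read 6.07 and 7.49 with miR-21 and 5.89 and 7.64 with the control vector. Apart from the 4.21, every FTX reading in an immunoprecipitate was below the filter level of 4.02. The size of its shortfall therefore rests on low readings. Every immunoprecipitate was below every Total RNA array, and the groups did not overlap. The difference was -3.76 ± 0.22 (SE with the block) for AGO2 IP and -3.21 ± 0.22 for IgG IP. Without the 2 doubted arrays it was -3.61 ± 0.23 for AGO2 IP and -3.15 ± 0.23 for IgG IP. A second FTX probe set, below the filter, read 3.44 and 3.25 on the replicate 2 AGO2 IP arrays of miR-21 and control vector, against 6.55 and 6.99 in the matching Total RNA, and lay between 2.77 and 3.31 on the AGO2 IP and Total RNA arrays of replicate 1.

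The genes whose profile over the 12 arrays was most like that of FTX, after the mean of each replicate was taken out, were LINC01355 (Pearson r 0.989), BPTF (0.987), RPS16P5 (0.986), THADA (0.980) and NCR3LG1 (0.980). BPTF encodes a chromatin-remodelling subunit, and RPS16P5 is annotated as a ribosomal protein pseudogene. LINC01355 was the only one of the 251 among them. AGO2 IP minus Total RNA was -2.58 for LINC01355, -2.12 for BPTF and -3.61 for RPS16P5. The 12 arrays and their 3 fractions are the same for every gene, so these values of r are a description.

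LINC01355 read 3.56 and 4.78 on the miR-21 AGO2 IP arrays and 3.90 and 5.16 on the control vector ones, against 6.02 and 7.73 with miR-21 and 6.08 and 7.90 with the control vector in Total RNA. Its IgG IP arrays read 3.95 and 4.85 with miR-21 and 3.99 and 4.95 with the control vector, so AGO2 IP minus IgG IP was -0.08 ± 0.22. The LINC01355 readings on the immunoprecipitate arrays of replicate 1 were below the filter level of 4.02. GABPB1-AS1, antisense to the gene for a subunit of GA-binding protein, read 5.64 and 7.32 with miR-21 and 5.16 and 8.12 with the control vector in AGO2 IP, against 8.42 and 10.20 with miR-21 and 8.27 and 10.20 with the control vector in Total RNA. Its difference was -2.72 ± 0.30, and 4 of 4 other probe sets above the filter were lower too (-4.16 to -0.80). RUSC1-AS1 differed by -2.03 ± 0.28 and EMC3-AS1 by -1.71 ± 0.23, each with the groups separated within both replicates.

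MALAT1, a nuclear speckle RNA, and TUG1 lay lower in AGO2 IP than in Total RNA. MALAT1 read 7.39 and 11.94 with miR-21 and 4.65 and 12.51 with the control vector in AGO2 IP, 7.86 and 11.83 with miR-21 and 8.33 and 12.28 with the control vector in IgG IP, and 9.39 and 12.44 with miR-21 and 8.59 and 12.65 with the control vector in Total RNA. The gap to Total RNA was -2.97 in replicate 1 and -0.32 in replicate 2, or -1.65 ± 0.64 together, which was not called with the block. It was -2.63 ± 0.29 and called without the 2 doubted arrays. The lowest MALAT1 level was on the array with the highest ACTB 3′ minus 5′ value. All 10 of its other probe sets above the filter were lower in AGO2 IP than in Total RNA, by -3.45 to -0.44. TUG1 read 8.07 and 8.78 with miR-21 and 7.86 and 8.75 with the control vector in AGO2 IP, against 8.91 and 9.85 with miR-21 and 8.80 and 9.76 with the control vector in Total RNA. It differed by -0.97 ± 0.22, and 3 of 3 other probe sets above the filter were lower (-1.0 to -0.52). In IgG IP the TUG1 difference from Total RNA was -0.77.

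**Figure D2:**
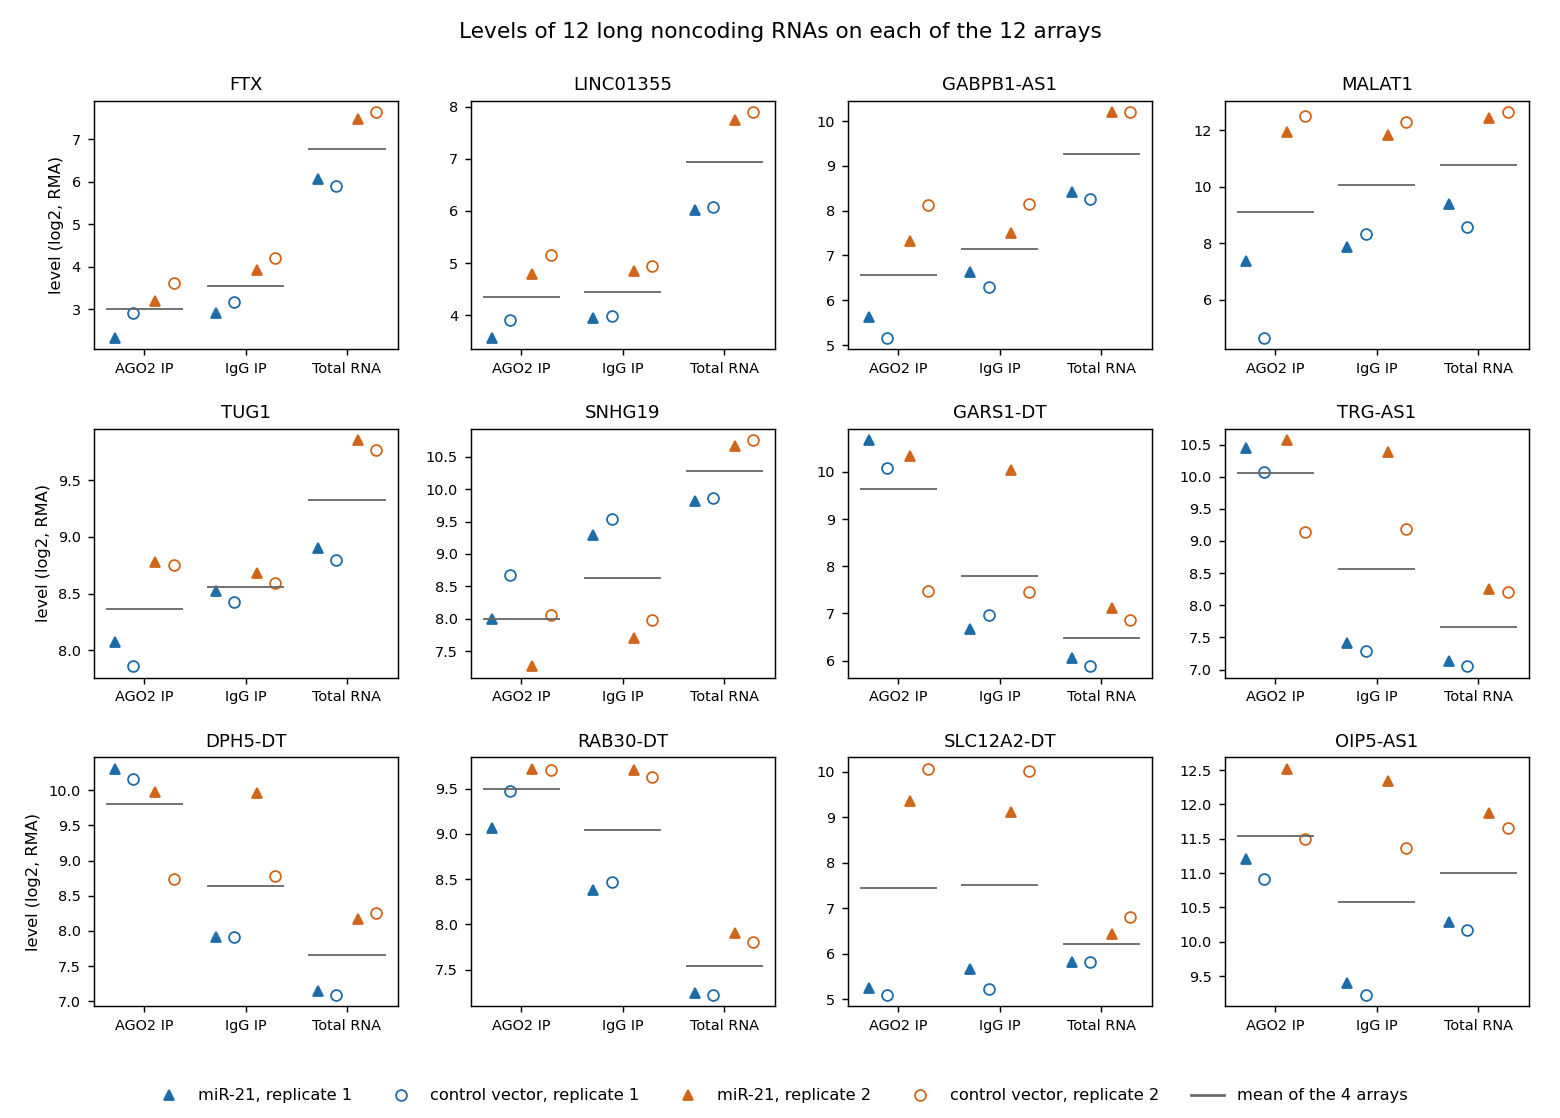
Log2 level of 12 long noncoding RNAs on each of the 12 arrays, by fraction (horizontal axis) and by replicate and construct (colour and symbol). Lines are means of 4 arrays. FTX, LINC01355 and GABPB1-AS1 separate both immunoprecipitates from Total RNA. GARS1-DT, TRG-AS1 and DPH5-DT are lowest in AGO2 IP on the control vector array of replicate 2, which still lies above Total RNA of that replicate. Their IgG IP means are above Total RNA in both replicates.

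Of the snoRNA hosts, SNHG19, whose intron carries SNORD60, was the one that differed most from Total RNA. It read 7.99 and 7.27 with miR-21 and 8.67 and 8.07 with the control vector in AGO2 IP, 9.29 and 7.70 with miR-21 and 9.54 and 7.98 with the control vector in IgG IP, and 9.82 and 10.66 with miR-21 and 9.87 and 10.75 with the control vector in Total RNA. AGO2 IP minus Total RNA was -2.27 ± 0.44, with -1.51 in replicate 1 and -3.04 in replicate 2. SNHG17 (-0.57 ± 0.43), SNHG32 (0.07 ± 0.21) and SNHG33 (-0.19 ± 0.46) differed in sign between the replicates. The start windows of the 4 hosts are shown because host genes of this kind often begin with a pyrimidine tract, and capitals mark the first 5 transcribed bases.
SNHG17, chr20:38435299-38435338, minus strand: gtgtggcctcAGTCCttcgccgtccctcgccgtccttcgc
SNHG19, chr16:2155329-2155368, minus strand: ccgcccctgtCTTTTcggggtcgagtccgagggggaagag
SNHG32, chr6:31834906-31834945, plus strand: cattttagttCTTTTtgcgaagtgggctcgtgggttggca
SNHG33, first start, chr3:183447598-183447637, plus strand: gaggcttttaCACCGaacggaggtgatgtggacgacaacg
SNHG33, second start, chr3:183447641-183447680, plus strand: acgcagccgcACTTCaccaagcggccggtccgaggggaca
A C at the start followed by 4 bases that are C or T was present in SNHG19 and SNHG32, whose differences from Total RNA were -2.27 and 0.07. It was present in 4.37% of members and in 5.14% of all genes.

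The RNAs that lay highest in AGO2 IP relative to Total RNA were 3 divergent transcripts and an antisense RNA. GARS1-DT, divergent from the glycyl-tRNA synthetase gene, read 10.67 and 10.33 with miR-21 and 10.09 and 7.47 with the control vector in AGO2 IP, 6.68 and 10.04 with miR-21 and 6.97 and 7.45 with the control vector in IgG IP, and 6.05 and 7.11 with miR-21 and 5.88 and 6.86 with the control vector in Total RNA. In replicate 2 the level followed the construct and not the antibody. Its difference from Total RNA was 3.17 ± 0.74, or 3.96 ± 0.30 without the 2 doubted arrays. All 4 other GARS1-DT probe sets above the filter went the other way, by -0.46 to -0.33, so the value belongs to 1 probe set.

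TRG-AS1, antisense to the T-cell receptor gamma locus, read 10.44 and 10.57 with miR-21 and 10.08 and 9.14 with the control vector in AGO2 IP, against 7.13 and 8.26 with miR-21 and 7.05 and 8.20 with the control vector in Total RNA. It differed by 2.40 ± 0.53. DPH5-DT, divergent from a diphthamide synthesis gene, read 10.31 and 9.98 with miR-21 and 10.16 and 8.74 with the control vector in AGO2 IP, against 7.14 and 8.17 with miR-21 and 7.09 and 8.25 with the control vector in Total RNA. It differed by 2.13 ± 0.48, and its other probe set above the filter differed by 2.26. RAB30-DT, divergent from a Golgi GTPase gene, read 9.06 and 9.72 with miR-21 and 9.47 and 9.71 with the control vector in AGO2 IP, against 7.24 and 7.91 with miR-21 and 7.22 and 7.81 with the control vector in Total RNA. Its difference was 2.04 in replicate 1 and 1.86 in replicate 2, the closest pair of these 4. LINC02693 differed by 0.98 ± 0.22 (0.97 and 0.98), while its 3 other probe sets above the filter differed by -0.31 to 0.39, 2 of them with the same sign.

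For 58 of the 251 RNAs AGO2 IP lay above Total RNA in replicate 1 and below it in replicate 2, and for 53 the reverse. A few of the widest of these, chosen after their values were seen, are given here. SLC12A2-DT, divergent from the sodium-potassium-chloride cotransporter gene, read 5.25 and 9.37 with miR-21 and 5.09 and 10.07 with the control vector in AGO2 IP, against 5.81 and 6.43 with miR-21 and 5.83 and 6.80 with the control vector in Total RNA. In IgG IP it read 5.66 and 9.12 with miR-21 and 5.22 and 10.02 with the control vector, so the replicate 2 level was high with both antibodies. Its other 2 probe sets above the filter were lower with AGO2 than in Total RNA (-0.84 and -0.77). CKMT2-AS1 differed by -0.64 in replicate 1 and 1.51 in replicate 2, PSMA3-AS1 by -1.11 and 1.26, and RFX5-AS1 by 2.0 and -0.39.

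IgG IP against Total RNA measures what the control antibody recovers, and it shares its Total RNA arrays with the AGO2 IP comparison. The median over the 251 was -0.04, against -0.01 over all tested genes and -0.08 over those with a Total RNA level of at least 5. Without the block 0 were called (0% of all tested genes; 8 of the 251 had an unadjusted p under 0.05). With it 11 were called (4.38%), 1 higher and 10 lower, all of them also called in AGO2 IP. The background was 1.92% of all tested genes (0.296% higher and 1.62% lower) and 2.36% of those with a level of at least 5 (0.34% higher and 2.02% lower). With 1 array left out the count ran between 2 and 16. Without the 2 doubted arrays 6 were called, all lower, against 0.398% of all tested genes (0.0468% higher and 0.351% lower) and 0.496% of those with a level of at least 5 (0.0583% higher and 0.438% lower). In 26 of the 251 the IgG IP arrays were above, and in 37 below, the Total RNA arrays within both replicates, against 10% and 16.5% of all tested genes and 9.64% and 19.9% of those with a level of at least 5. RAB30-DT, the one called higher, differed by 1.5 ± 0.22. GABPB1-AS1 differed by -2.13 ± 0.30, LINC01355 by -2.50 ± 0.22, RUSC1-AS1 by -1.57 ± 0.28 and EMC3-AS1 by -1.43 ± 0.23. SNHG19 differed by -1.65 ± 0.44 and was not called, with -0.43 in replicate 1 and -2.86 in replicate 2. GARS1-DT lay 1.31 ± 0.74 above Total RNA (0.86 and 1.76), DPH5-DT 0.98 ± 0.48 (0.80 and 1.16) and TRG-AS1 0.91 ± 0.53 (0.26 and 1.56). In AGO2 IP the replicate 2 differences of GARS1-DT, DPH5-DT and TRG-AS1 were 1.92, 1.15 and 1.63. NCK1-DT lay 0.93 ± 0.26 above Total RNA in IgG IP and TRAF3IP2-AS1 0.90 ± 0.30. None of these RNAs above Total RNA, other than RAB30-DT, was called in IgG IP.

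AGO2 IP against IgG IP takes out what both antibodies recover, and it did not involve the Total RNA arrays that chose the RNAs. None of the 251 was called (limma, Benjamini-Hochberg over all tested genes). Of all tested genes 0% were called, with or without the block. An unadjusted p under 0.05 was reached by 1 of the 251 and 29 of the 12824 tested genes without the block, and by 10 of the 251 and 663 of the 12824 with it. The median difference was -0.14 over the 251 and -0.08 over all tested genes. In replicate 1 the differences had an SD of 0.66 over the 251, and in replicate 2 an SD of 0.15. Only 2 of the 251 were separated upward within both replicates and 8 downward (0.797% and 3.19%), against 1.23% and 3.9% of all tested genes and 1.21% and 4.36% of those with a level of at least 5.

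Among RNAs higher with AGO2 in both replicates, 4 had the largest mean differences. They were GARS1-DT (1.86 ± 0.74, from 3.56 and 0.16), TRG-AS1 (1.49 ± 0.53, from 2.91 and 0.07), OIP5-AS1 (0.95 ± 0.34, from 1.75 and 0.15) and RFX5-AS1 (0.87 ± 0.58, from 1.57 and 0.17). OIP5-AS1, a conserved RNA known to bind miR-7, read 11.21 and 12.52 with miR-21 and 10.91 and 11.49 with the control vector in AGO2 IP, against 9.39 and 12.34 with miR-21 and 9.23 and 11.37 with the control vector in IgG IP. Among those lower in both replicates, 4 had the lowest mean differences. They were LINC02762 (-0.72 ± 0.32, from -1.37 and -0.08), LINC00115 (-0.71 ± 0.54, from -1.24 and -0.18), FAM111A-DT (-0.68 ± 0.39, from -1.13 and -0.23) and ZNF143-AS1 (-0.66 ± 0.40, from -1.21 and -0.11). In the fit with the block all 8 had an adjusted p of 0.819. FTX differed by -0.54 ± 0.22 (adjusted p 0.819), TUG1 by -0.19 ± 0.22 (0.834) and MALAT1 by -0.95 ± 0.64 (0.819). For FTX most readings with either antibody were below the filter level of 4.02.

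**Figure D3:**
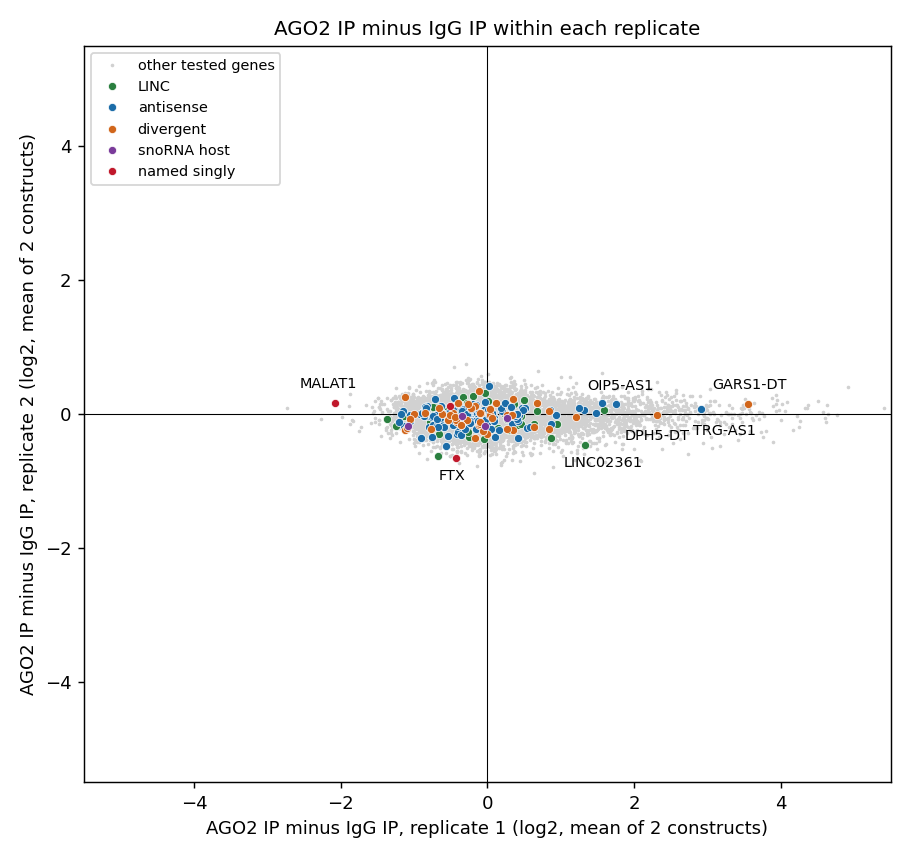
Difference of AGO2 IP and IgG IP in replicate 1 (horizontal) and replicate 2 (vertical), in log2 units and averaged over the 2 constructs, for the 251 long noncoding RNAs (coloured by naming class) and all other tested genes (grey). The spread of the 251 is an SD of 0.66 in replicate 1 and 0.15 in replicate 2.

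Without the 2 doubted arrays 16 of the 251 were called (6.37%), 7 higher and 9 lower, against 7.42% of all tested genes (5.95% higher and 1.47% lower) and 8.69% of those with a level of at least 5 (6.9% higher and 1.79% lower). The 7 higher were GARS1-DT (3.35 ± 0.32, adjusted p 0.00769 in limma), TRG-AS1 (2.47 ± 0.35), DPH5-DT (2.02 ± 0.33), OIP5-AS1 (1.54 ± 0.24), LINC02210 (1.53 ± 0.26), LINC02361 (1.25 ± 0.20) and TMPO-AS1 (0.91 ± 0.19). The lowest were MALAT1 (-1.92 ± 0.32, adjusted p 0.0187 in limma), ZNF143-AS1 (-1.28 ± 0.25), LINC00205 (-1.22 ± 0.27), LINC02762 (-1.22 ± 0.22) and FLVCR1-DT (-1.21 ± 0.21), followed by EP300-AS1, GABPB1-AS1, ACTR3-AS1 and RUSC1-AS1 (-1.15 to -0.88). The other probe sets of GARS1-DT, LINC02210 and LINC02762 above the filter did not share their sign against Total RNA. FTX (-0.46 ± 0.25) and LINC01355 (-0.17 ± 0.25) were not among them. In replicate 2 this contrast sets a miR-21 array against a control vector array. With all arrays, DPH5-DT (-0.01), TMPO-AS1 (-0.15), LINC02361 (-0.46) and MALAT1 (0.17) went the other way in replicate 2. The rest of the 16 kept their sign there.

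Antisense and divergent RNAs were then set beside the genes they are named after. Of 188 such RNAs 166 had a tested partner. With the block 24 of the 166 partners fell and 10 rose in AGO2 IP against Total RNA, while the others were not called. The background over all tested genes was 11.3% lower and 4.71% higher. Among those with a level of at least 5 it was 13.9% lower and 5.26% higher. The partners were not chosen by their level, and nothing is read from these counts. The median was -0.15 for the noncoding RNAs and -0.16 for their partners, and over the 166 pairs the difference of one tracked that of the other weakly (Pearson r 0.19, pairs sharing the same arrays). Of 22 called members with a tested partner, 4 had a called partner. The background was 16% of all tested genes and 19.1% of those with a level of at least 5, so this count is near it. Each of the 4 partners had the sign of its member: DPH5-DT with DPH5 (2.13 and 1.39), EMC3-AS1 with EMC3 (-1.71 and -1.03), MELTF-AS1 with MELTF (-1.05 and -1.13) and CHKB-DT with CHKB (-0.74 and -0.99). GABPB1 differed by 0.44 ± 0.28 beside GABPB1-AS1 at -2.72. GARS1 differed by 0.70 ± 0.31 and RAB30 by 0.66 ± 0.28, neither called. PRKAG2, an AMP-activated kinase subunit gene, rose by 3.09 ± 0.57 with AGO2 while PRKAG2-AS1 was at -0.02, and MIF fell by 2.77 while MIF-AS1 was at 0.25. MIF was called lower in IgG IP against Total RNA too (-2.38 ± 0.39). In RefSeq 77 pairs had both starts, all on opposite strands. Of 20 divergent pairs 19 started head to head within 1000 bases (median 172.5 bases apart), and of 57 antisense pairs 15 did. DPH5-DT and DPH5 start 62 bases apart, head to head.

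**Figure D4:**
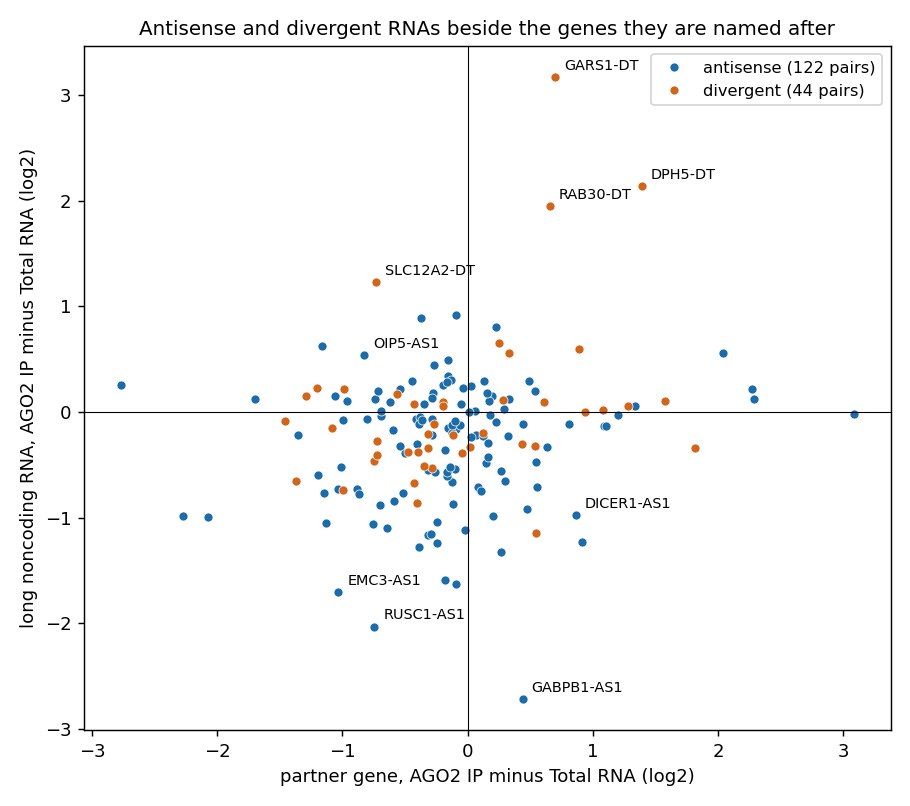
Difference of AGO2 IP and Total RNA for the partner gene (horizontal) and for the noncoding RNA named after it (vertical), in log2 units, for 122 antisense and 44 divergent pairs. GABPB1-AS1 lies at -2.72 beside a partner at 0.44, and DPH5-DT at 2.13 beside a partner at 1.39.

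Proteins of the machinery that holds, processes or degrades noncoding RNAs were read on the same arrays, as mRNAs in AGO2 IP against Total RNA with the block (0 called in any of these lists without it). The background was 11.3% of all tested genes lower and 4.71% higher with all arrays, and 13.3% lower and 8.58% higher without the 2 doubted arrays. Of 13 paraspeckle protein genes TAF15 rose (3.0 ± 0.65, limma adjusted p 0.0221) and SMARCA4 fell (-2.05 ± 0.43, limma adjusted p 0.0207), with a list median of -0.08. TAF15 rose in IgG IP too (3.17 ± 0.65, limma adjusted p 0.0490). Of 10 nonsense-mediated decay factors 4 fell, namely UPF2 (-1.30), SMG5 (-1.04), NBAS (-0.96) and UPF1 (-0.92), and none rose (median -0.60), while 3 fell without the 2 doubted arrays. Of 17 genes of the nuclear exosome and its adaptors PABPN1 fell (-1.66), and of 10 snoRNP protein genes RUVBL2 fell (-1.56), with medians of -0.35 and -0.47. Among 6 snoRNA hosts outside the naming rule TAF1D fell (-2.26 ± 0.32). TAF1D was called lower in IgG IP too (-2.10 ± 0.32). The 4 decay factors also lay below Total RNA in IgG IP, with UPF2 at -0.96, SMG5 at -0.69, NBAS at -0.93 and UPF1 at -0.74. So did SMARCA4 (-1.19), PABPN1 (-0.92) and RUVBL2 (-0.96), and none of these was called there. Of 15 genes listed as other noncoding RNAs TP53TG1 fell (-1.18), as did MCM3AP (-1.16), which is a coding gene whose antisense RNA was among the 251. JPX, the neighbour of FTX in the X-inactivation centre, was at 1.68 ± 0.55 and not called, while FTX was at -3.76. Without the 2 doubted arrays 4 of the paraspeckle protein genes and 4 of the snoRNP protein genes fell and JPX rose, while the counts of the exosome genes, the other noncoding RNAs that fell and the snoRNA hosts were as with all arrays. Of the 12 T-cell marker genes 3 fell in AGO2 IP with all arrays, CD3E, CD5 and PTPRC (-0.74 to -0.73), and 4 without the 2 doubted arrays. The median over all tested genes was -0.05.

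miR-21 against the control vector asks whether the long noncoding RNAs change with the microRNA. None of the 251 was called in any fraction, with or without the block, against 0% of all tested genes. In the fits with the block, 7 of the 251 had an unadjusted p under 0.05 in AGO2 IP, 2 in IgG IP and 0 in Total RNA, as had 353, 123 and 3 of the 12824 tested genes. Without the block none of the 251 had one in any fraction. The median difference was -0.03 in AGO2 IP, -0.06 in IgG IP and 0.00 in Total RNA, against 0.07, 0.04 and 0.02 over all tested genes. The median over the 251 without the 2 doubted arrays was 0.048 in AGO2 IP and 0.049 in IgG IP, so its sign rests on those arrays. In Total RNA the 251 lay between -0.41 (FOXN3-AS1) and 0.43 (TNFRSF14-AS1), which was the narrowest range of the 3 fractions.

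In AGO2 IP the largest differences that kept their sign in both replicates were those of GARS1-DT (1.72 ± 1.05, from 0.58 and 2.86), ELOA-AS1 (1.49 ± 0.56, from 0.72 and 2.26), TMPO-AS1 (1.32 ± 0.44, from 0.89 and 1.75) and EPB41L4A-AS1 (1.19 ± 0.61, from 0.65 and 1.72). Without the control vector AGO2 IP array of replicate 2 the difference of GARS1-DT was -0.15. ELOA-AS1 read 8.14 and 8.52 with miR-21, against 7.42 and 6.26 with the control vector. TMPO-AS1 read 6.62 and 7.21 with miR-21, against 5.73 and 5.46 with the control vector. In replicate 2 the IgG IP arrays showed a gap of the same kind, with TMPO-AS1 at 7.16 with miR-21 and 5.80 with the control vector. The lowest were LINC02256 (-1.05 ± 0.49), HNRNPD-DT (-0.95 ± 0.46), FUT8-AS1 (-0.81 ± 0.36) and TNRC6C-AS1 (-0.78 ± 0.28), the last antisense to a gene of the miRNA silencing complex. All 8 had a limma adjusted p of 1.00 after rounding. FTX differed by -0.50 ± 0.31 in AGO2 IP, -0.28 ± 0.31 in IgG IP and 0.01 ± 0.31 in Total RNA. Its readings were below the filter level of 4.02 throughout AGO2 IP and mostly so in IgG IP.

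In IgG IP LINC02361 (1.23 ± 0.59), ELOA-AS1 (0.93 ± 0.56), LAMTOR5-AS1 (0.91 ± 0.35) and ZDHHC12-DT (0.80 ± 0.64) lay highest, and ZNF674-AS1 (-0.93 ± 0.31), ZEB1-AS1 (-0.67 ± 0.66), LINC02762 (-0.61 ± 0.45) and PSMA3-AS1 (-0.58 ± 0.69) lowest. In Total RNA TNFRSF14-AS1 (0.43 ± 0.35), SLC9A3-AS1 (0.36 ± 0.32), NUP50-DT (0.36 ± 0.38) and MCPH1-DT (0.35 ± 0.46) lay highest, and FOXN3-AS1 (-0.41 ± 0.30), ADARB2-AS1 (-0.36 ± 0.29), MAN1B1-DT (-0.34 ± 0.41) and ARRDC3-AS1 (-0.31 ± 0.31) lowest. Over the mean of the 3 fractions GARS1-DT (1.03 ± 0.61), ELOA-AS1 (0.87 ± 0.32), LINC02361 (0.71 ± 0.34) and TMPO-AS1 (0.64 ± 0.25) lay highest, and LINC02256 (-0.41 ± 0.28), RUSC1-AS1 (-0.40 ± 0.23), INTS6-AS1 (-0.39 ± 0.15) and FUT8-AS1 (-0.38 ± 0.21) lowest. The interaction of construct and fraction, for AGO2 IP set against either other fraction, called 0 of the 251 in limma with or without the block, and 0 had an unadjusted p under 0.05.

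**Figure D5:**
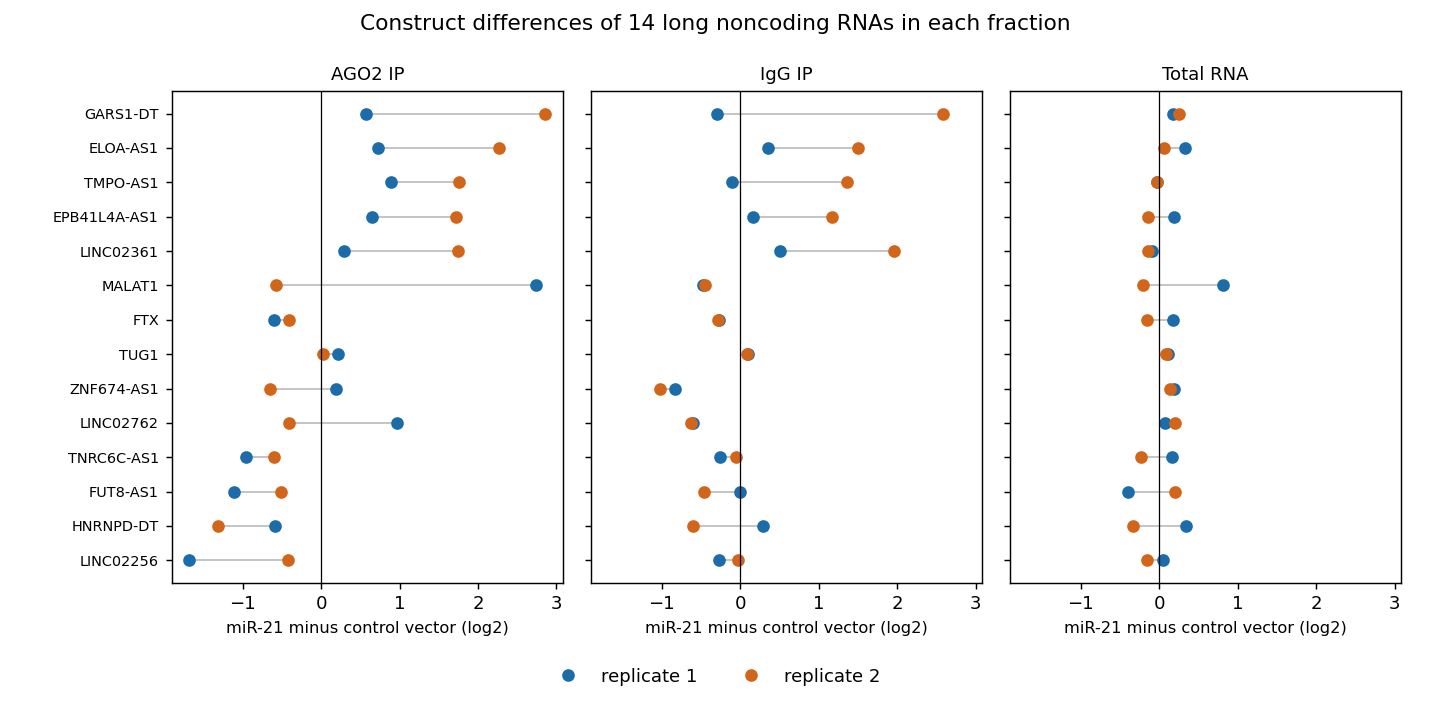
Difference of miR-21 and control vector, in log2 units, for 14 long noncoding RNAs in AGO2 IP, IgG IP and Total RNA, with a point for each replicate and a line joining them. GARS1-DT lies at 0.58 and 2.86 in AGO2 IP, while its IgG IP points are at -0.29 and 2.59 and its Total RNA points at 0.18 and 0.25.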

How the data were processed

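The deposited table holds log2 values of 54675 probe sets on 12 arrays, made by the authors with RMA, per the submitters' processing notes. The RMA settings are not known here. Probe sets were named from the platform annotation: 41097 carry 1 symbol, 1801 several and 11777 are not listed, and 1 single-symbol probe set per gene was kept (highest mean over 12 arrays). Genes averaging below 4.02, the median of all non-control probe sets, were left out, which left 12824. Fits used limma 3.58.1 (lmFit, eBayes) on 6 group means, with Benjamini-Hochberg adjustment over all tested genes and calls at 0.05. Replicate numbers pair the samples (correlation of deviations 0.468 to 0.873 over 15 pairs of groups, median 0.601), so fits with the replicate as a block stand beside the main fits. The fits were tested on simulated differences of AGO2 IP and Total RNA. With the block 26.8% of differences of 1 log2 unit and 81.7% of those of 2 were recovered. Without it 0% of either were.

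Named RNAs were the singly named and SNHG members, and by size the 6 highest and 6 lowest against Total RNA and 4 and 4 in the other contrasts that kept their sign in both replicates, with the 3 nearest each side of the level threshold, the 5 genes most like FTX and the partner genes. RefSeq tables of GRCh38.p14 gave positions and sequences. The members and lists were chosen with earlier results of these data known. Settings tried were the block, the scaling, the filter, the median over probe sets, each array left out and the 2 doubted arrays left out. The number of arrays limits the precision.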

Additional observations from a re-analysis of the deposited data

Results flagged for a closer look

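For some RNAs the difference with miR-21 had one sign in both replicates of an immunoprecipitate and the opposite sign in both of Total RNA. Several of these values were very small, such as TMPO-AS1 and ZDHHC12-DT in Total RNA. TNFRSF14-AS1 was at -0.01 in IgG IP of replicate 2, and MCPH1-DT at 0.01 in Total RNA of replicate 1. Each replicate 2 difference in an immunoprecipitate also rests on a doubted array. TMPO-AS1 differed by 1.32 in AGO2 IP (0.89 and 1.75) and by -0.03 in Total RNA, and the interaction was 1.35 ± 0.62 (limma with the block, adjusted p 1.00). ADARB2-AS1 differed by 0.47 in AGO2 IP and -0.36 in Total RNA, with an interaction of 0.83 ± 0.41 (limma, adjusted p 1.00), and by 0.17 in IgG IP. For IgG IP against Total RNA the difference itself was not tested. There LINC02361 differed by 1.23 in IgG IP and -0.12 in Total RNA, and ZDHHC12-DT by 0.80 and -0.04. ZNF674-AS1 differed by -0.93 in IgG IP and 0.17 in Total RNA, LINC02762 by -0.61 and 0.13, TNFRSF14-AS1 by -0.42 and 0.43, and MCPH1-DT by -0.28 and 0.35.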

How the results depend on the processing

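The number of members called was 0 without the replicate block in every contrast, and that fit recovered 0% of simulated differences. In AGO2 IP against Total RNA it was 39 with the block, 38 after centring on array medians, 29 after quantile normalization, 33 with no filter, 29 with the median over a gene's probe sets, 49 without the 2 doubted arrays, and 1 (without miR-21 AGO2 IP replicate 2) to 55 (without control vector AGO2 IP replicate 2) with 1 array left out. The other omissions gave, for miR-21 and control vector arrays, 6 and 19 (AGO2 IP, replicate 1), 37 and 30 (IgG IP, each replicate), 25 and 37 (Total RNA, replicate 1) and 7 and 6 (Total RNA, replicate 2). In IgG IP against Total RNA the counts were 11, 12, 11, 11, 6, 6 and 2 to 16. There omitting an AGO2 IP array gave 16 (control vector) or 6 (miR-21) in each replicate, omitting a replicate 1 IgG IP array 5 (miR-21) or 2 (control vector), omitting a replicate 1 Total RNA array 4 (miR-21) or 6 (control vector), and omitting any IgG IP or Total RNA array of replicate 2 gave 2. In AGO2 IP against IgG IP 16 were called without the 2 doubted arrays and 0 with any 1 array left out, and the construct contrasts and interactions gave 0 under every setting run. Of the 39 called against Total RNA with the block 31 were called without the doubted arrays too. A level threshold of 4 gave 498 members and of 6 gave 145.

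Of 1480 differences of named members under alternatives 27 changed sign. With the median over probe sets GARS1-DT was at -0.45 against Total RNA in AGO2 IP, -0.44 in IgG IP, -0.0064 for AGO2 IP against IgG IP and -0.032 for miR-21 in AGO2 IP, LINC02210 at -0.26 (AGO2 IP against Total RNA), SNHG33 at 0.17 (IgG IP against Total RNA), TNRC6C-AS1 at 0.11 (miR-21 in AGO2 IP) and TNFRSF14-AS1 at -0.30 (miR-21 in Total RNA). Within replicate 1 SNHG17 was at 0.38 in AGO2 IP and 0.12 in IgG IP against Total RNA. Within replicate 2 SNHG32 was at -0.058 in AGO2 IP and -0.034 in IgG IP, and SNHG33 at 0.71 in AGO2 IP and 0.90 in IgG IP. SNHG32 was at -0.033 in AGO2 IP against Total RNA after quantile normalization. With 1 array left out, reversed values were SNHG32 at -0.10, SNHG33 at 0.12, 0.25 and 0.14 (AGO2 IP) and 0.23, 0.36 and 0.36 (IgG IP) against Total RNA, LINC00115 at 0.035 (AGO2 IP against IgG IP), GARS1-DT at -0.15 (miR-21 in AGO2 IP), and in Total RNA MCPH1-DT at -0.18 and MAN1B1-DT at 0.020 and 0.014. The cause was not tested.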
